A study of Mus musculus with 4 samples.

Results

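Skeletal muscle stores glucose as glycogen, and the 9 genes described here encode enzymes and regulators that build it and break it down. They are Gys1, Gyg, Gbe1 and Ugp2 for synthesis, Pygm for breakdown, Phka1 and Phkg1 for phosphorylase kinase, and Ppp1r3a and Ppp1r3c for the subunits that bring protein phosphatase 1 to glycogen. They were chosen by name from 32868 gene names, and each name had a single row of values. The RNA was of C57BL/6 mice at postnatal day 21 and came from the tibialis anterior, a muscle of the shin made mostly of fast fibres. Both groups carried the label Myf5+, which in crosses of this kind stands for Cre expressed from Myf5 in muscle precursors. The 2 Nf1-KO libraries had the genotype Nf1flox/flox/Myf5+ and the 2 Het libraries Nf1flox/+/Myf5+, so the controls also carried 1 floxed Nf1 allele and no group was free of it. Nf1 encodes neurofibromin, which turns Ras off, and the series is about the need for it in muscle growth and metabolism after birth. Nothing in the labels says that the libraries of a group came from separate animals, so the p-values measure the spread between these libraries, which may be technical.

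In muscle fibres glycogenin starts a glycogen particle, glycogen synthase lengthens its chains with glucose from UDP-glucose, and the branching enzyme adds branch points. Glycogen phosphorylase removes glucose units again when the fibre contracts. Phosphorylase kinase, switched on by calcium and by adrenaline signalling, turns phosphorylase on, while protein phosphatase 1, held on the particle by its targeting subunits, turns phosphorylase off and synthase on. Fast fibres are known for high glycogen breakdown.

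Values are given as the authors deposited them and were read from the values as RPKM (reads, or possibly fragments, divided by gene length and by library depth). Levels of different genes are compared on that scale, which is per length. Fold changes are differences of log2(RPKM + 1) between Nf1-KO and Het after the libraries were scaled to each other, each with its standard error (SE). A gene is said to have risen or fallen where limma's Benjamini-Hochberg adjusted p over 10690 tested genes was under 0.05. Sequencing depth, estimated from the steps of low values, was 36500000 to 58200000 reads, and the authors' deposited table gives the 9 genes mean normalized counts of 3879 (Gbe1) to 247911 (Pygm). Between the libraries of a group the coefficient of variation of the 9 genes was 0.135% to 3.21%, beside a median over 4826 genes of 2.03% in Het and 1.91% in Nf1-KO. Nf1 itself was 1.09 and 1.01 RPKM in the Het libraries against 0.89 and 0.85 RPKM in the Nf1-KO libraries (log2 fold change -0.18, SE 0.0569, limma adjusted p 0.041), and it lost this call in 7 of 11 alternative fits, among them each fit that left out a library. With a pseudocount of 0.1 its log2 fold change was -0.33 (limma adjusted p 0.045), and the authors' deposited table gives -0.38 (adjusted p 0.0026).

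Of the 9 genes, 6 fell, 2 rose and 1 passed in neither direction. Over all tested genes limma called 50.3% in either direction, with 25.4% lower and 24.9% higher. The median log2 fold change was -0.36 over the 9 genes and 0.00 over all tested genes. The genes that fell were Phka1, Pygm, Phkg1, Ppp1r3c, Ugp2 and Ppp1r3a, while Gbe1 and Gys1 rose and Gyg did not pass. The authors' deposited table called the same 6 genes lower and the same 2 higher, where it called 31.6% of its 13985 rows (16.6% lower, 15.0% higher). As deposited, both Nf1-KO libraries lay below both Het libraries for 6 of the 9 genes and above them for 3, where over all tested genes the groups were apart for 77.3%, with 27.4% lower and 49.8% higher. Because these genes were chosen with earlier results known, the counts describe them and are no test of the pathway.

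**Figure D1:**
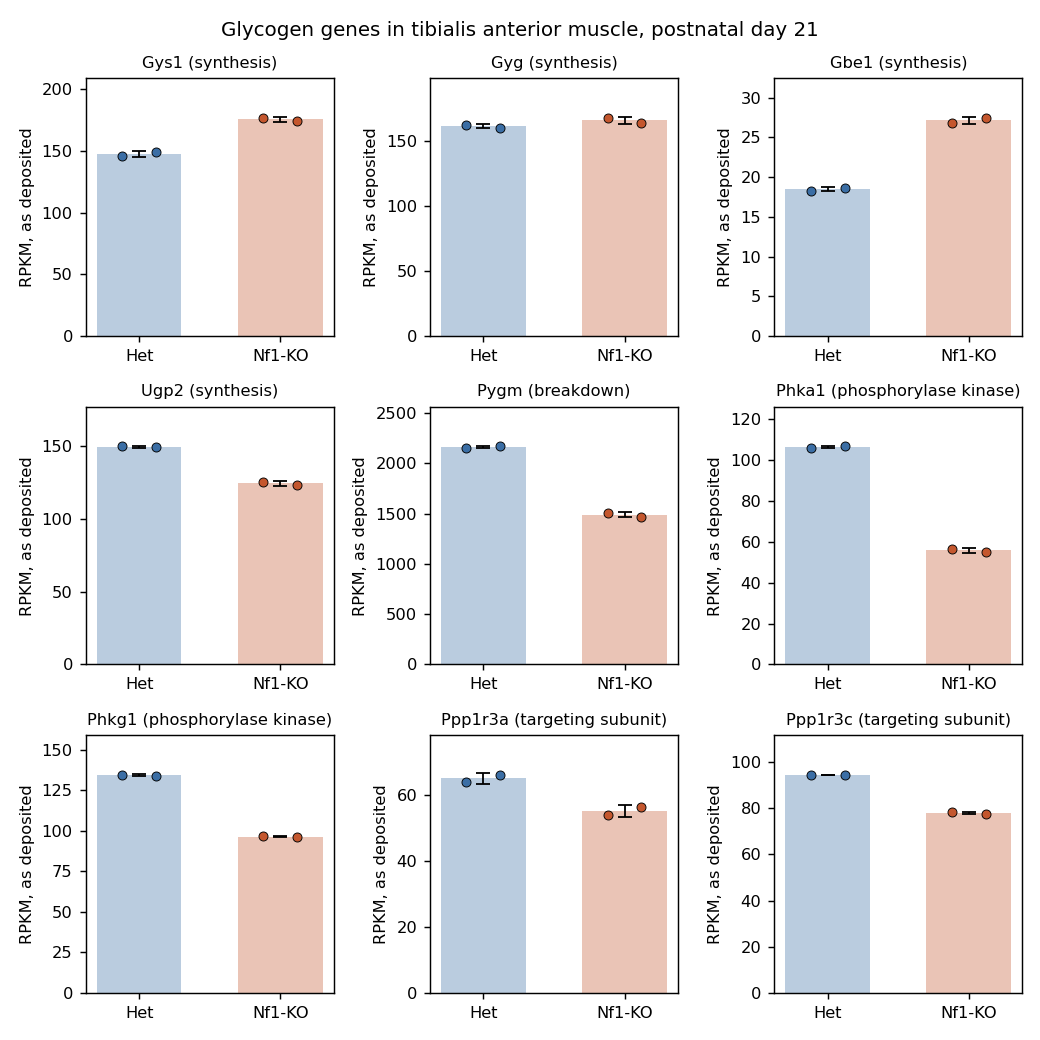
RPKM as deposited (vertical axes, each from 0) of the 9 genes in Het and Nf1-KO; points are libraries, bars the mean and error bars the SD of 2 libraries. The 2 Nf1-KO points lie above both Het points for Gys1, Gbe1 and Gyg and below them for the other 6 genes, with Phka1 at 52.4% of its Het mean.

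The promoter windows of 4 of these genes are printed because they stand for the directions seen: Pygm is the most abundant member, Phka1 fell the furthest of the 9, Gbe1 rose the furthest of the 9, and Ppp1r3a is the member whose window held a match to the MEF2 motif. Each window runs from 250 bases before to 50 bases after the gene's start in RefSeq (build GRCm38.p6), 5′ to 3′ on the gene's strand. Capitals mark matches to the E-box CANNTG, the motif of myogenic bHLH factors, and in Ppp1r3a also the match to the MEF2 motif.
Pygm, chr19:6384158-6384457, plus strand: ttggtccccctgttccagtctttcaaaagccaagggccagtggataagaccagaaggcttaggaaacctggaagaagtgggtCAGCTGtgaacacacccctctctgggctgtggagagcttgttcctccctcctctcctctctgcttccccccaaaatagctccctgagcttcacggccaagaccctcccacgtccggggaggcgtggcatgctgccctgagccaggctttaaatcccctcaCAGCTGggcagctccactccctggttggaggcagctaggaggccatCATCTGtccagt
Phka1, chrX:102644197-102644496, minus strand: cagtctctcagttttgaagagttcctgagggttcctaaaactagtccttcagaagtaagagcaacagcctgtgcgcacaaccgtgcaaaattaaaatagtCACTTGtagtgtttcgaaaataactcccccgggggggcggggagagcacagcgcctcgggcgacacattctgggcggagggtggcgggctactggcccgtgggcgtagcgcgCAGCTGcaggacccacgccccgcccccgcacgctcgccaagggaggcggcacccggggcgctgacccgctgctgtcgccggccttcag
Gbe1, chr16:70313699-70313998, plus strand: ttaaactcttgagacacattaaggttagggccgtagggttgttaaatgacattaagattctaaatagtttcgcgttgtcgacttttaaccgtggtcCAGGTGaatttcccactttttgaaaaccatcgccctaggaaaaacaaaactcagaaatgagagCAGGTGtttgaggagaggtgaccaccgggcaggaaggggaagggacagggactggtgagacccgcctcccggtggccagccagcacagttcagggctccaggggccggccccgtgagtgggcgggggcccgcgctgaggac
Ppp1r3a, chr6:14755225-14755524, minus strand: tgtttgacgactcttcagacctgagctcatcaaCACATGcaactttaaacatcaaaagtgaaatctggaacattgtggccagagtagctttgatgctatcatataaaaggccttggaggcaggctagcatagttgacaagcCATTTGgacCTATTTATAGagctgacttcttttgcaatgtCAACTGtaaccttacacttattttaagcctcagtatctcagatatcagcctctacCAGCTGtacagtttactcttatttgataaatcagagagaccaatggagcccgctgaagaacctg
All 9 genes had an entry, with 10 windows in all because Ugp2 has 2 starts. CANNTG was in each of the 10 windows and in 72.3% of 32851 windows of the same length, both strands searched. Its count was 3 in Pygm, 2 in Phka1, 2 in Gbe1 and 4 in Ppp1r3a, so the genes that fell and the gene that rose all held it. The MEF2 motif was in 1 of the 10 windows, that of Ppp1r3a, and in 3.19% of all windows. The CArG motif of serum response factor (1.63% of all windows) and AAGGTCA, a motif of nuclear receptors (4.72%), were in none of the 10. In the 4 printed windows no match overlapped another. These are letter matches in a short window and not measured binding.

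Among the genes of synthesis, 2 rose, 1 fell and 1 did not pass. Gys1, the muscle glycogen synthase that extends the chains, was 145.78 and 149.07 RPKM in Het and 176.78 and 174.18 RPKM in Nf1-KO. Both Nf1-KO libraries lay above both Het libraries, and the log2 fold change was 0.16 (SE 0.0216, limma adjusted p 0.0016). The Gys1 mean as deposited was 119% of Het, and 112% after scaling. Annotated exons of Gys1 overlap those of Ruvbl2, which was 8.59 and 8.78 RPKM in Het and 7.61 and 7.26 RPKM in Nf1-KO, a small level beside Gys1 and in the opposite direction.

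Gbe1, the branching enzyme, was the lowest of the 9 genes in both groups and rose furthest of them. It was 18.27 and 18.65 RPKM in Het and 26.78 and 27.47 RPKM in Nf1-KO. The groups were well apart, with a log2 fold change of 0.44 (SE 0.0301, limma adjusted p 7.8e-05), and its mean after scaling was 138% of Het. By size of increase it stood 688th of the 10690 tested genes.

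Ugp2, which makes the UDP-glucose that synthase uses, went the other way. It was 149.91 and 149.07 RPKM in Het and 125.63 and 123.25 RPKM in Nf1-KO. Both Nf1-KO libraries were lower. Its log2 fold change was -0.36 (SE 0.0204, limma adjusted p 3.8e-05), with a scaled mean of 78.2% of Het.

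Gyg, glycogenin, the protein primer at the core of each particle, is the member without a call. It was 162.79 and 160.63 RPKM in Het and 168.25 and 164.13 RPKM in Nf1-KO, slightly higher in both Nf1-KO libraries as deposited. After scaling its log2 fold change was -0.05 (SE 0.0215, limma adjusted p 0.077), and with values as deposited it was 0.04 (adjusted p 0.17), so its sign depends on the scaling. The authors' deposited table gave -0.07 with an adjusted p of 0.064.

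Other genes of the synthesis side were read from a list of 25 further glycogen genes, of which 20 could be tested. Pgm2, a phosphoglucomutase that interconverts glucose phosphates on the way to and from glycogen, was 327.83 and 326.73 RPKM in Het and 237.85 and 232.96 RPKM in Nf1-KO. It fell, with a log2 fold change of -0.57 (SE 0.019, limma adjusted p 4.1e-06). Its relative Pgm2l1 fell from 4.35 ± 0.0424 to 3.21 ± 0.0424 RPKM (SD, n = 2). The Pgm names are those of the deposited rows, and which enzyme each symbol stands for in other annotations was not checked. Pgm1, near the detection filter at 0.67 ± 0.0424 and 0.95 ± 0.0283 RPKM, was called higher (log2 fold change 0.18, limma adjusted p 0.038, and 0.36 with a pseudocount of 0.1), but the call was lost in 6 of 11 alternative fits, including each that left out a library. Gys2, the liver synthase, was at 0.06 and 0.12 RPKM in Het and listed at 0 in Nf1-KO. Gys1 made up at least 99.9% of the RPKM of the pair in each library.

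For breakdown, Pygm, muscle glycogen phosphorylase, fell by 0.63 on the log2 scale. It was 2150.94 and 2169.13 RPKM in Het and 1507.54 and 1468.63 RPKM in Nf1-KO, with both Nf1-KO libraries far below both Het libraries. The SE was 0.0184 and the limma adjusted p 2.7e-06, and the scaled mean was 64.7% of Het. By mean RPKM it ranked 29th of all gene names in Het and 33rd in Nf1-KO. The brain and liver phosphorylases were low in both groups: Pygb was 1.02 ± 0.177 and 1.14 ± 0.184 RPKM (SD, n = 2; limma adjusted p 0.8), Pygl was under 0.5 RPKM in every library, and Pygm held 99.9% of the family's RPKM in all 4 libraries. Gaa, the lysosomal glucosidase that degrades glycogen inside lysosomes, was 54.6 ± 0.134 RPKM in Het and 46.5 ± 1.22 RPKM in Nf1-KO (SD, n = 2). It fell by 0.32 on the log2 scale (limma adjusted p 2e-04).

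Phosphorylase kinase is built from alpha, beta and gamma subunits with calmodulin as the fourth, and both members from it fell. Phka1, the muscle alpha subunit that regulates the enzyme, was 105.89 and 106.67 RPKM in Het and 56.48 and 55.00 RPKM in Nf1-KO. The groups were far apart, and the log2 fold change of -1.01 (SE 0.0237, limma adjusted p 1.2e-06) was the 95th lowest of the 10690 tested genes. Phkg1, the muscle catalytic subunit, was 134.61 and 133.99 RPKM in Het and 96.75 and 96.06 RPKM in Nf1-KO. It fell by 0.57 on the log2 scale (SE 0.0194, limma adjusted p 4.5e-06), and its exons overlap those of Sumf2, which was 2.89 and 2.76 RPKM in Het and 1.89 and 2.02 RPKM in Nf1-KO.

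Other subunits of the kinase were read from the further list. Phkb, the beta subunit, was 68.37 and 68.21 RPKM in Het and 37.58 and 37.79 RPKM in Nf1-KO, a log2 fold change of -0.93 (SE 0.0224, limma adjusted p 1.3e-06). Among the calmodulin genes, whose product also serves many other enzymes, Calm3 fell by 0.69 on the log2 scale (limma adjusted p 8.9e-06). Calm2 overlapped between groups as deposited (64.43 and 62.78 against 61.79 and 65.17 RPKM), and its call after scaling (log2 fold change -0.10, limma adjusted p 0.044) was lost in 8 of 12 alternative fits, among them values as deposited (adjusted p 0.94) and those without Het replicate 1, Het replicate 2 or Nf1-KO replicate 1. Phka2 and Phkg2, the isoforms best known from liver, were 0.775 ± 0.0354 and 0.81 ± 0.0424 RPKM in Het and 0.74 ± 0.0424 and 1.10 ± 0.106 RPKM in Nf1-KO (SD, n = 2), and neither passed (limma adjusted p 0.35 and 0.063). Phka1 held 98.7% to 99.3% of the alpha subunit RPKM, and Phkg1 98.8% to 99.4% of the gamma subunit RPKM, over the 4 libraries.

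**Figure D2:**
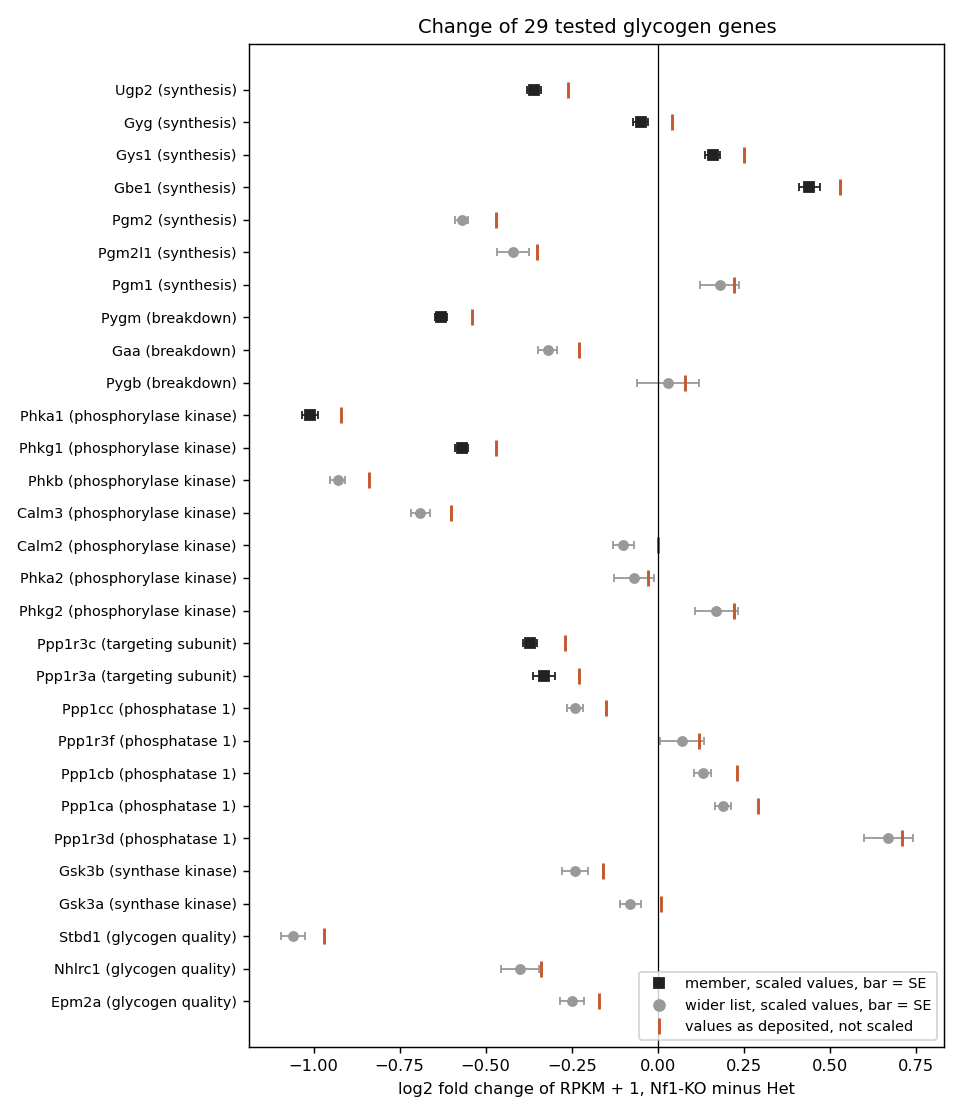
Log2 fold change of RPKM + 1, Nf1-KO minus Het (horizontal axis), of the 29 tested glycogen genes in order of role; squares are the 9 members, circles the further list, bars the SE, and vertical ticks the value without scaling. Phka1, Phkb and Stbd1 lie near -1, Ppp1r3d and Gbe1 lie furthest to the right, and Gyg and Gsk3a change sign between the scaled and unscaled values.

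Both targeting subunits fell. Ppp1r3a, the muscle subunit that anchors protein phosphatase 1 to glycogen and the sarcoplasmic reticulum, was 63.93 and 66.23 RPKM in Het and 53.99 and 56.50 RPKM in Nf1-KO. Both Nf1-KO libraries were lower, although this gene had the widest replicate spread of the 9, and the log2 fold change was -0.33 (SE 0.0317, limma adjusted p 0.00035). Ppp1r3c, also called PTG for protein targeting to glycogen, was 94.56 and 94.38 RPKM in Het and 78.20 and 77.71 RPKM in Nf1-KO. Its log2 fold change was -0.37 (SE 0.0203, limma adjusted p 3.3e-05). The ratio of Ppp1r3a to Ppp1r3c was 0.676 and 0.702 in the Het libraries and 0.690 and 0.727 in the Nf1-KO libraries, and the groups overlapped.

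These 2 subunits held nearly all RPKM of the 7 Ppp1r3 genes, with 40.4% ± 0.66 and 58.6% ± 0.59 in Het and 40.6% ± 0.86 and 57.3% ± 0.88 in Nf1-KO (SD, n = 2). Ppp1r3d, a subunit of low level here, was 0.48 and 0.33 RPKM in Het and 1.27 and 1.31 RPKM in Nf1-KO, a log2 fold change of 0.67 (SE 0.0708, limma adjusted p 5e-04). At this level the pseudocount holds the value down: it was 1.40 with a pseudocount of 0.1 (limma adjusted p 0.0011), and 1.59 in the authors' deposited table. It passed the detection filter only through the Nf1-KO libraries, so that it was tested at all depended on its being higher there. Ppp1r3b was 0.14 and 0.22 RPKM in Het and 0.45 and 0.41 RPKM in Nf1-KO, under the filter and not tested here, while the authors' deposited table gave it a log2 fold change of 1.10 with an adjusted p of 0.016. Ppp1r3f did not pass (limma adjusted p 0.39), and Ppp1r3e and Ppp1r3g, under 0.25 RPKM in every library, were not tested.

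The catalytic subunits that these proteins bind did not move together. Ppp1ca rose from 67.5 ± 1.41 to 82.5 ± 0.191 RPKM and Ppp1cb from 73.8 ± 0.629 to 86.4 ± 1.67 RPKM (SD, n = 2), with log2 fold changes of 0.19 and 0.13 (limma adjusted p 0.00092 and 0.0046). Ppp1cc, at 54.2 ± 0.636 and 48.7 ± 0.552 RPKM, fell by 0.24 on the log2 scale (limma adjusted p 0.00037). Of the kinases that phosphorylate and inhibit glycogen synthase, Gsk3b fell from 8.21 ± 0.106 to 7.25 ± 0.0212 RPKM (log2 fold change -0.24, limma adjusted p 0.0025). Gsk3a, at 23.6 ± 0.311 and 23.9 ± 0.573 RPKM, did not pass (limma adjusted p 0.079), and its log2 fold change was -0.08 after scaling and 0.01 as deposited.

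Of the 3 genes for the quality and disposal of glycogen, 3 fell, where 25.4% of all tested genes fell. Stbd1, which binds glycogen and tethers it to membranes, was 17.16 and 16.62 RPKM in Het and 8.07 and 8.14 RPKM in Nf1-KO. Its log2 fold change of -1.06 (SE 0.0347, limma adjusted p 3.8e-06) was the lowest of the 29 glycogen genes tested. Epm2a and Nhlrc1 encode laforin, a phosphatase that acts on glycogen, and malin, its partner ubiquitin ligase. They fell from 13.8 ± 0.00707 to 12.2 ± 0.332 RPKM and from 2.65 ± 0.00707 to 1.89 ± 0.106 RPKM (SD, n = 2), with log2 fold changes of -0.25 and -0.40 (limma adjusted p 0.0015 and 0.0014). Over the whole further list, 11 of 20 tested genes fell (55.0%, beside 25.4% of all tested genes). In that list 4 rose (20%, beside 24.9%) and 5 did not pass, with a median log2 fold change of -0.17. The 4 include Ppp1r3d and Pgm1, whose limits are given above. On values as deposited limma called 10 of the 20 lower and 5 higher, where it called 17.6% of all tested genes lower and 35.2% higher (52.8% in all). On those values the 9 members again gave 6 lower and 2 higher.

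Ratios between 2 genes of the same library do not depend on the scaling between libraries. The ratio of Gys1 to Pygm was 0.0678 and 0.0687 in the Het libraries and 0.117 and 0.119 in the Nf1-KO libraries. The mean ratio in Nf1-KO was 1.73 times that in Het. That of Gbe1 to Gys1 was 0.125 in both Het libraries and 0.151 and 0.158 in Nf1-KO, so the increase of the branching enzyme exceeded that of the synthase. Phka1 to Phkg1 went from 0.787 and 0.796 in Het to 0.584 and 0.573 in Nf1-KO, since the alpha subunit fell more than the gamma subunit. With 2 libraries a group no permutation test of a ratio can go below 0.33, so these are given without a test. The groups did not overlap in 3 of the 4 ratios, where over all tested genes the deposited values were apart for 77.3%.

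**Figure D3:**
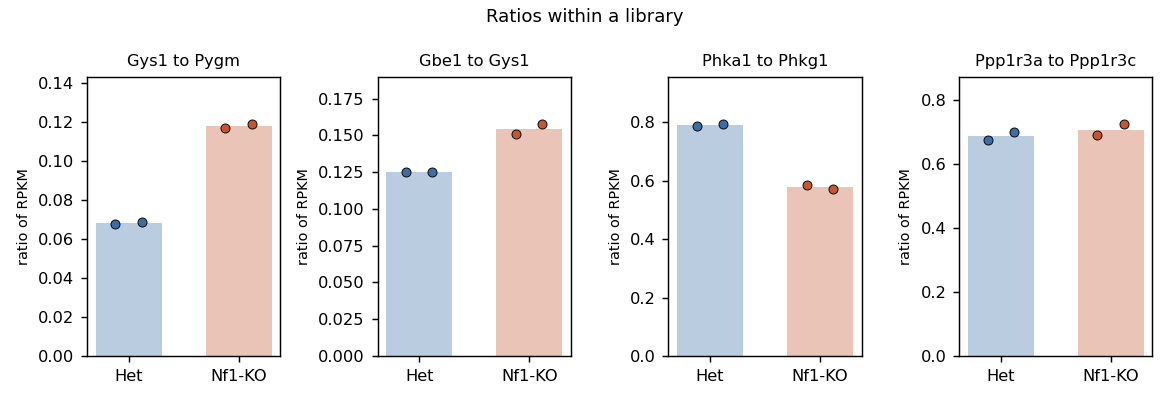
Ratio of RPKM (vertical axes, each from 0) of 4 pairs of glycogen genes within a library in Het and Nf1-KO; points are libraries and bars the mean of 2. Gys1 to Pygm and Gbe1 to Gys1 were higher in both Nf1-KO libraries, Phka1 to Phkg1 was lower, and Ppp1r3a to Ppp1r3c overlapped.

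The order of levels also differed between the groups. In Het it ran Pygm, Gyg, Ugp2, Gys1, Phkg1, Phka1, Ppp1r3c, Ppp1r3a and Gbe1, and the ranges of Ugp2 and Gys1 touched. In Nf1-KO it ran Pygm, Gys1, Gyg, Ugp2, Phkg1, Ppp1r3c, Phka1, Ppp1r3a and Gbe1, and the ranges of Phka1 and Ppp1r3a overlapped. Gys1 was below Gyg in Het and above it in Nf1-KO, and Phka1 was above Ppp1r3c in Het and below it in Nf1-KO, with separate ranges in each case. Pygm exceeded the next member in mean level in both groups, at 2160.0 against 162 RPKM in Het and 1488 against 175 RPKM in Nf1-KO.

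**Figure D4:**
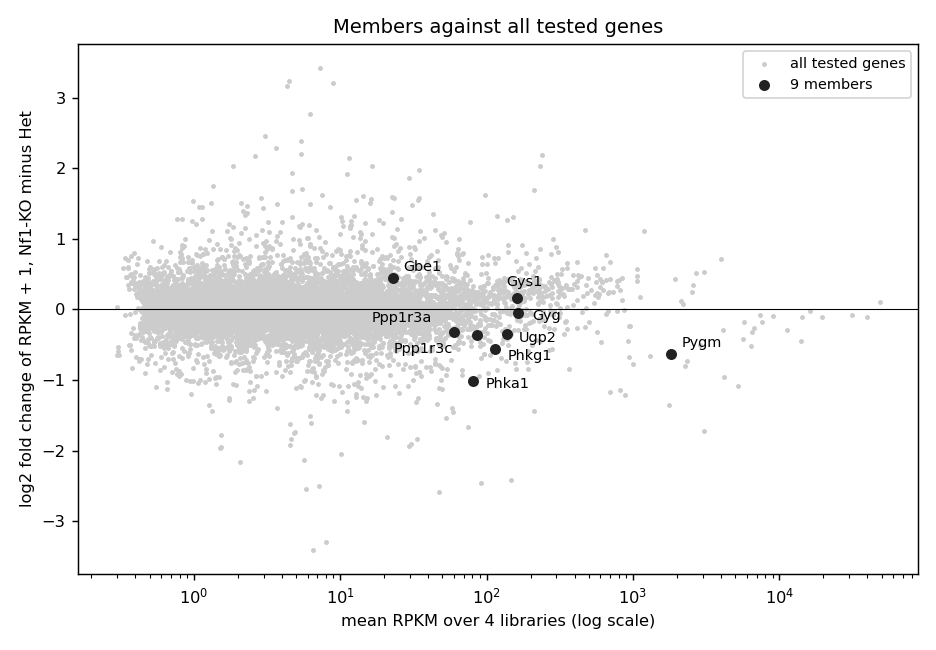
Log2 fold change of RPKM + 1, Nf1-KO minus Het (vertical axis), against the mean RPKM over 4 libraries (horizontal axis, log scale); grey points are the 10690 tested genes and black points the 9 members. The members lie at high levels, between Gbe1 and Pygm, and 7 of them are below 0, of which Gyg is above 0 without scaling.

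The genes closest in pattern were found among 4826 genes of at least 5 RPKM, by the Euclidean distance of log2 values centred on Het over the 4 libraries. For Pygm they were Gprc5c, Fam131a and Igfbp5 (distances 0.018, 0.018 and 0.024), and for Ppp1r3c they were Diap1, Epb4.1 and Chchd4 (0.012, 0.017 and 0.020). With 4 libraries in 2 groups such closeness describes mostly a like fold change.

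The glycogen genes moved beside a change in fibre type genes. Myh4, the myosin of the fastest fibres, was 6766.78 and 7014.79 RPKM in Het and 3508.18 and 3427.52 RPKM in Nf1-KO, a log2 fold change of -1.08 (limma adjusted p 8.4e-07), while Myh1 and Myh2 rose by 0.52 and 0.77. The slow myosin Myh7 was 1.53 and 1.66 RPKM in Het and 1.47 and 1.36 RPKM in Nf1-KO and did not pass (log2 fold change -0.16, limma adjusted p 0.066). The part of these changes in the fall of Pygm, Phka1, Phkg1 and the others was not tested. The muscle markers Acta1, Ckm, Des, Myh4, Myh1 and Ttn were all present. They summed to 32121 to 32264 RPKM in Het and 26222 to 26679 RPKM in Nf1-KO. Of the 6 muscle markers 4 fell and 2 rose, where over all tested genes 25.4% fell and 24.9% rose. Of the markers of other cells, those of Schwann cells (4 of 4 rose, summed 9.50 to 9.68 RPKM in Het and 22.1 to 23.5 in Nf1-KO) and fibroblasts (4 of 4 rose, 70.2 to 72.4 and 108 RPKM) were higher, and so were both immune markers that could be tested of 5 listed (summed 1.16 to 1.58 and 2.84 to 3.29 RPKM, Adgre1 listed at 0). Of the 4 endothelial markers 2 rose and Kdr fell (summed 67.1 to 67.4 and 72.4 to 73.2 RPKM). Adipocyte markers summed to 7.60 to 8.67 and 18.7 to 19.2 RPKM, with Ucp1 listed at 0. Of the 2 that could be tested Cfd rose (5.87 and 6.80 RPKM in Het, 17.34 and 17.71 in Nf1-KO) and Adipoq did not pass (1.11 and 1.31, 0.95 and 1.05 RPKM), so the higher sum was that of Cfd alone. Their part was not tested, and in whole muscle fewer cells of a type cannot be told apart from less RNA per cell. No tested marker of satellite cells (Pax7 and Cdh15) or red blood cells (Alas2) passed. The 3 hepatocyte markers were at or under 0.03 RPKM each in every library.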

How the data were processed

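Total RNA libraries (TruSeq v2 kit, per the labels' protocols) of tibialis anterior muscle at postnatal day 21, 2 labelled Het and 2 Nf1-KO, were used. STAR 2.4.2a, DESeq2 and build mm9 are named, without a role, in the submitters' processing notes; the counting program, annotation and use of strand are not given in the sources used here. The authors deposited 1 value per gene and library, read from the values as RPKM. The authors' deposited comparison table holds, per the file headers, a signal (mean normalized count), a log2 fold change with its standard error, a test score, and p-values with adjusted p-values.

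Of 34682 rows, 33 without a gene name were left out and the highest-mean copy of a name was kept. The planned test was used: limma 3.58.1 (R 4.3.3), with a trend of the variance on the mean and no covariate, fitted to log2(RPKM + 1) for genes of at least 0.5 RPKM in 2 libraries. Libraries were scaled by trimmed means of their log ratios without weights, with 30% of ratios and 5% of abundances cut at each end, giving factors of 0.969, 0.967, 1.03 and 1.03. A pseudocount of 1 understates the change of low genes. Depth was estimated where transcripts were under 400 bases, and 44.7% of rows were listed at 0 in all libraries. All 9 members and every gene of the further list used could be named; 2 genes first planned for that list are not reported here. Members and lists were chosen with earlier results of these data known. Same-numbered libraries did not deviate together (correlation -0.018 across genes). Alternatives were the pseudocount, 2 filters, 2 scalings, the trend, summed copies, a replicate block and each library left out.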

Additional observations from a re-analysis of the deposited data

How the results depend on the processing

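Across 12 alternative settings, the 9 glycogen genes gave 108 values, of which 107 kept both direction and call. The exception is Gyg, whose log2 fold change turned to 0.039 with values as deposited. The counts of 6 lower and 2 higher members were the same in each setting. Of 232 values of the 20 further genes, 213 stayed the same, 14 lost and 2 gained a call, and 3 changed sign: Gsk3a at 0.014 as deposited, and Pygb, which ran from -0.062 to 0.123 when each library was left out, below 0 without Het replicate 2 and without Nf1-KO replicate 1. The count of further genes that rose, 4, was 2 where every library had to reach 1 RPKM, which leaves fewer genes tested, and 2 to 3 when each library was left out. The share of Gys1 in the pair with Gys2 was higher by 0.0608 percentage points in Nf1-KO, and by 0.0411 to 0.0804 without each library. This difference rests on Gys2 alone, at 0.06 and 0.12 RPKM in Het and 0 in Nf1-KO, under the detection filter, and no change is read from it. With the replicate number as a block, which the labels do not tie to animals, 6 members were called lower and 2 higher, and over all genes 2594 were higher and 2637 lower. Over all genes, the unscaled values gave 3760 higher and 1883 lower in place of 2660 and 2712. Depth limits the low genes: the authors' deposited table gives Pygl 46 and Ppp1r3b 61 mean normalized counts, beside 3879 or more for each member.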
